A study of Mus musculus with 17 samples.

Results

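The metalloproteinase system examined here comprised the matrix metalloproteinases (Mmp), the ADAM and ADAMTS proteases, the ADAMTS-like proteins (Adamtsl) and the tissue inhibitors of metalloproteinases (Timp). Members were taken by symbol: every protein-coding mouse gene named Mmp, Adam, Adamts, Adamtsl or Timp and a number, with a letter after the number allowed for Mmp and Adam. This gave 83 genes, 22 Mmp, 33 Adam, 19 Adamts, 5 Adamtsl and 4 Timp genes, of 21836 protein-coding genes and 53313 gene identifiers shared by the 17 deposited libraries. All 83 were listed in every library.

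Transcripts had been counted by RNA sequencing in primary tubular epithelial cells (PTEC) and in whole kidneys of wild-type mice. The strain is written C57BL/6Rj in the labels and C57BL/6JRj in the study's methods. The 4 non-senescent PTEC cultures were harvested on day 6 without irradiation. The 4 senescent PTEC cultures had received 10 Gray of γ-irradiation and were harvested on day 16, and the effects of irradiation and of longer culture cannot be told apart. The kidneys, 3 each at 3, 12 and 24 months of age, came from untreated male mice, and RNA was taken from a piece of the right kidney. PTEC were outgrowths of sieved tubular fragments from collagenase-digested kidneys, not sorted cells, and nothing states that the cultures came from separate animals, so their p-values measure the spread between these cultures.

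Mmp, ADAM and ADAMTS enzymes are zinc-dependent proteases. Secreted Mmp enzymes and ADAMTS enzymes cut collagens, proteoglycans and other matrix proteins, membrane-type Mmp enzymes work at the cell surface and activate other proenzymes, and many ADAM proteins cut receptors and ligands from the cell surface, a process called shedding. TIMP proteins block the active site of these enzymes, and ADAMTS-like proteins carry ADAMTS domains without a protease domain. In the kidney these genes are known from studies of tubular injury, fibrosis and basement membrane turnover.

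The total count ranged from 26963442 to 35409144 in PTEC, from 37311247 to 49471409 in 3-month kidneys, from 54097073 to 59718029 at 12 months and from 62761670 to 66894790 at 24 months, so sequencing depth increased with age. The 3-month kidneys had also been counted on another gene set than the older ones (54146 against 55401 identifiers), which cannot be told apart from age. The labels of the PTEC were checked against cell type markers. Of 10 proximal tubule markers, 8 averaged at least 1 CPM (library-scaled counts, TMM) in non-senescent and 6 in senescent PTEC. Of these, 7 were tested and Hnf4a, Slc5a2 and Cdh16 fell in senescent PTEC. Their summed level, 999 to 2101 CPM in non-senescent and 919 to 1114 CPM in senescent PTEC, lay far under the 7342 to 16570 CPM of the kidneys, and the proximal transporters Slc34a1, Slc22a6 and Slc22a8 were under 0.1 CPM in senescent PTEC. Slc22a8 was under 0.1 CPM in non-senescent PTEC too. Summed markers of loop of Henle were 5.02 to 22.4 CPM in non-senescent and 0.449 to 0.729 CPM in senescent PTEC. Those of distal tubule and collecting duct were 1.60 to 12.1 CPM and 0.104 to 0.243 CPM. Both tested loop markers, Slc12a1 and Umod, fell, as did Fxyd4, the 1 tested distal marker, where 19.7% of all genes tested were called lower. The senescence markers Cdkn1a and Cdkn2a rose in senescent PTEC by 1.30 and 1.64 on the log2 scale (adjusted p = 0.000602 and 0.000236), and all 5 proliferation markers fell.

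Levels between genes were compared per length, as RPKM (CPM divided by the exon length in units of 1000 bases). In non-senescent PTEC the most abundant member was Adamts1, a secreted protease that cuts aggrecan and versican, with 125 ± 41.8 RPKM (mean ± SD, n = 4). It was followed by Timp1 with 65.9 ± 14.5 RPKM, Timp2 with 64.9 ± 5.44 RPKM, the sheddase Adam9 with 63.8 ± 14.9 RPKM and the Notch sheddase Adam10 with 45.5 ± 13.1 RPKM. The cultures' values of Timp1, Timp2 and Adam9 overlapped, and the lowest culture of Adamts1, at 70.5 RPKM, lay within the ranges of all 3. In senescent PTEC Timp2 stood first with 186 ± 63.7 RPKM, followed by Adamts1 with 167 ± 46.8 RPKM. Their order did not hold beyond the spread of the cultures, which covered 120 to 241 RPKM for Timp2 and 120 to 225 RPKM for Adamts1. Mmp2 reached 41.1 ± 11.2 RPKM against 3.74 ± 1.24 RPKM in non-senescent PTEC. The Mmp genes together made up 7.15 to 8.37% of the summed RPKM of all members in non-senescent PTEC and 12.4 to 15.1% in senescent PTEC.

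The kidneys had another composition. Timp3, an inhibitor that binds to the matrix, reached 173 ± 57.2 RPKM at 3 months, 249 ± 69.6 at 12 months and 223 ± 22.4 at 24 months (n = 3 each), and the 4 Timp genes together made up 66.6 to 78.6% of the summed RPKM of the members in the 9 kidneys. Adam9 with 24.3 ± 5.46 RPKM and Adam10 with 14.7 ± 1.48 RPKM came next at 3 months. The Mmp genes made up 2.01 to 4.0% of the summed RPKM in the kidneys. PTEC and kidneys were scaled apart and their levels are given side by side without a test.

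Of the 83 members, 37 averaged at least 1 CPM in non-senescent PTEC, 40 in senescent PTEC, and 28, 32 and 33 in kidneys of 3, 12 and 24 months. There were 34 that did so in a PTEC group and in a kidney group. Another 9 did so in PTEC groups only (Adam8, Adamts12, Adamts14, Mmp8, Mmp9, Mmp10, Mmp16, Mmp24 and Mmp27), and Adamts15 and Adamtsl2 in kidney groups only. At the other end, 16 members had at most 3 counts in every library, most of them Adam genes, and 7 of these (Adam6a, Adam24, Adam25, Adam26a, Adam26b, Adam29 and Adam34) had no count at all. With no count, a level of up to 0.118 CPM is still possible in the shallowest library (3 counts).

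**Figure D1:**
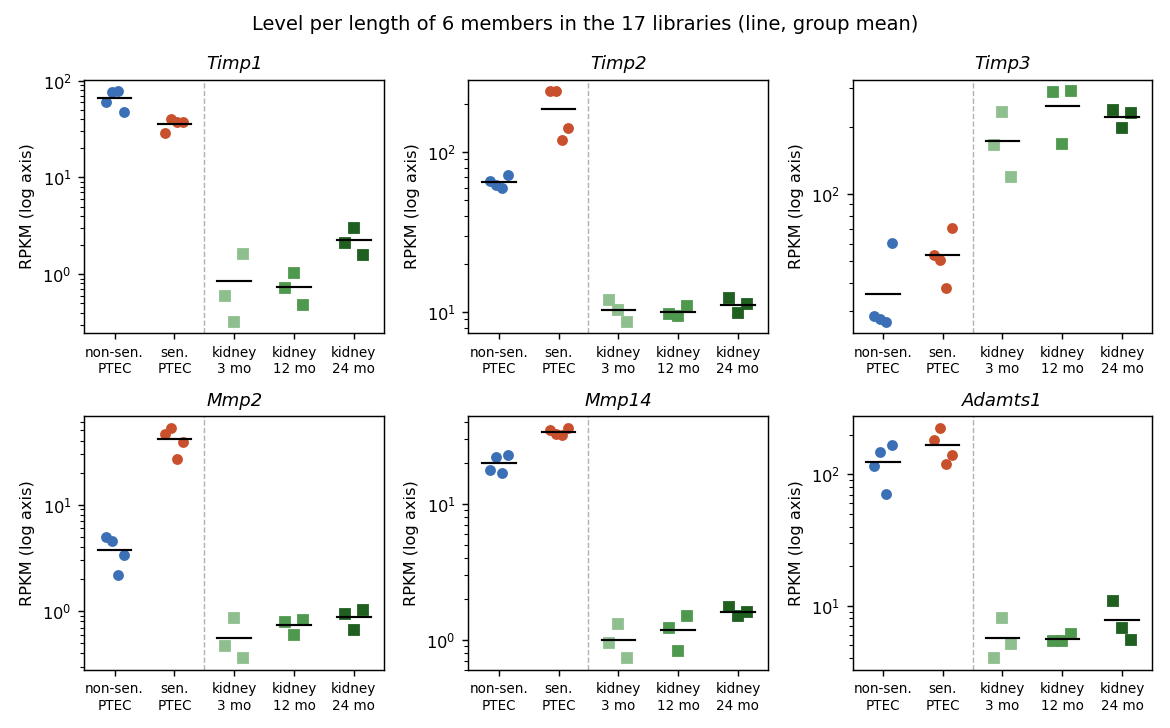
Level per length of Timp1, Timp2, Timp3, Mmp2, Mmp14 and Adamts1 in each of the 17 libraries (points, RPKM on a log axis, with a range of its own in each panel), with a line at the mean of each group; PTEC, left of the dashed line, and kidneys were scaled apart. Mmp2 has a mean of 3.74 RPKM in non-senescent and 41.1 RPKM in senescent PTEC, and of the 6 genes Timp3 has the highest mean at each kidney age.

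To find which members changed with senescence, senescent were compared with non-senescent PTEC. Senescent PTEC had higher levels of Mmp2 and of all 5 tested membrane-type Mmp genes, of Timp2, of the aggrecanase Adamts5 and of the procollagen propeptidases Adamts2 and Adamts14. They had lower levels of 3 Mmp genes of the chromosome 9 gene cluster, of the inhibitor Timp1 and of the sheddases Adam8 and Adam17. After the filter on low counts 49 of the 83 members were tested, and 19 rose, 6 fell and 24 were not called (a call required an edgeR adjusted p under 0.05 together with a log2 change beyond 0.5 in size). Among all 15434 genes tested, 20.1% were called higher and 19.7% lower. The log2 fold change was above 0 for 31 of the 49, against 49.9% of all genes tested, and its median was 0.42, against -0.002 for all genes tested. The groups did not overlap for 17 members that were higher and 4 that were lower, where 22.1% and 19.9% of all genes did so. A fit with the culture number as a block took same-numbered cultures as pairs, which no label states. It called 23 higher and 7 lower, among them the same 19 and 6, where 23.2% and 21.3% of all genes were called. DESeq2 called 23 higher and 7 lower of 75 members with counts, where 11.5% and 10.7% of 30570 genes were called. The fits that left out 1 culture were made without the block.

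**Figure D2:**
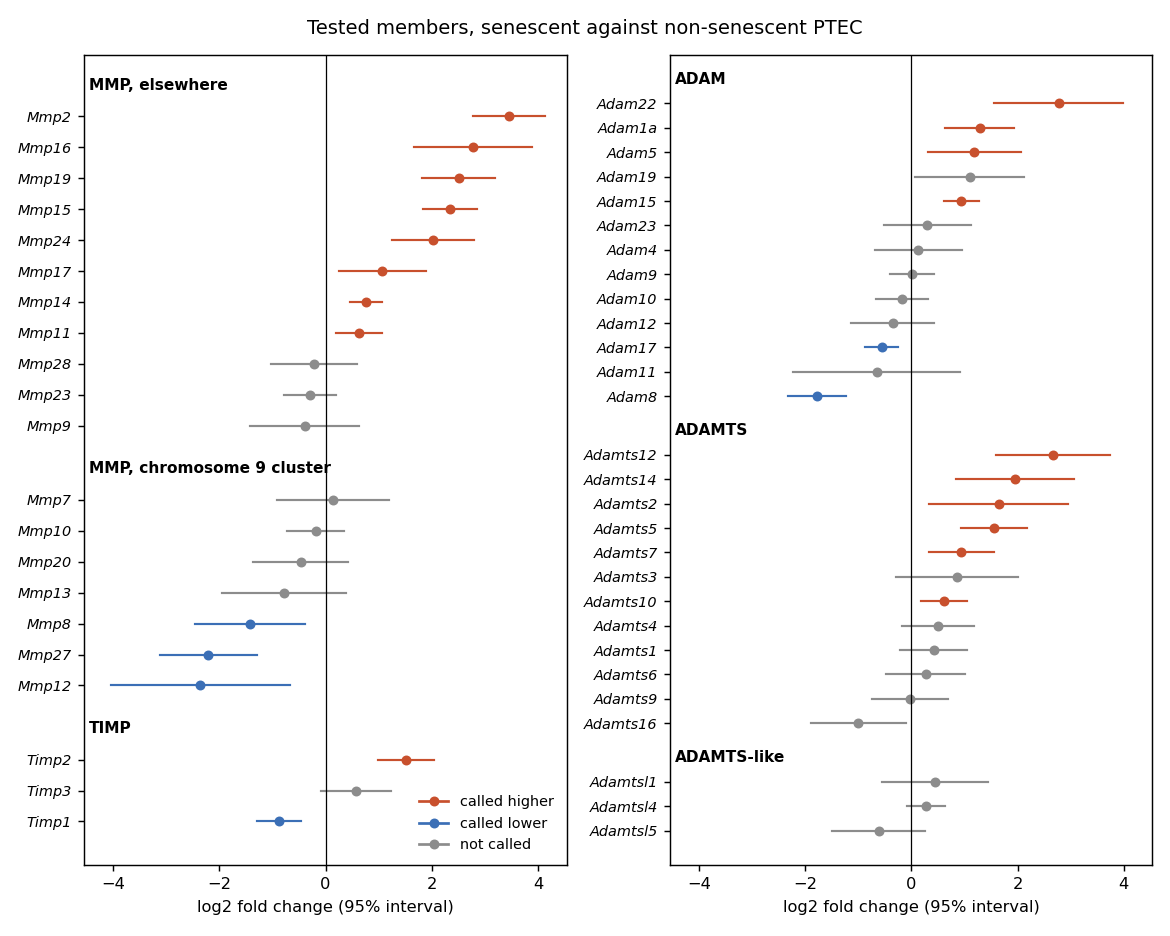
Log2 fold change of senescent against non-senescent PTEC for the 49 tested members, with 95% intervals, by family; red marks members called higher, blue called lower and grey not called. Mmp genes outside the chromosome 9 cluster lie at or above 0 in most cases, from -0.39 to 3.45, those of the cluster from -2.35 to 0.14.

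By family, 8 of 18 tested Mmp genes rose and 3 fell, 4 of 13 Adam genes rose and 2 fell, and 6 of 12 Adamts genes rose. Of 3 tested Timp genes 1 rose and 1 fell. Among all genes tested, 20.1% were called higher and 19.7% lower. No Adamts gene fell by edgeR, where 1, Adamts16, was lower at an unadjusted p under 0.05 and also called lower by DESeq2. No Adamtsl gene was called among 3 tested, where 0 had an unadjusted p under 0.05 (51.6% of all genes tested did) and DESeq2 called 1 higher. The median log2 fold change was -0.02 for Mmp, 0.13 for Adam, 0.74 for Adamts and 0.57 for Timp genes.

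The largest rise was that of Mmp2, gelatinase A, which cuts denatured collagen and collagen IV of basement membranes (chr8:92827291-92853420, GRCm38, plus strand). Mmp2 was at 16.6, 15.3, 7.29 and 11.3 CPM in non-senescent cultures 1 to 4 and at 156, 177, 89.7 and 130.5 CPM in senescent cultures 1 to 4. Every senescent culture was above every non-senescent one, and culture 3 was the lowest in both groups. The difference was 10.9-fold (log2 3.45 ± 0.30 SE, adjusted p = 2.96e-05) and held without each culture in turn (log2 3.27 to 3.62). The other gelatinase, Mmp9, had 4.70, 4.79, 4.04 and 2.36 CPM in non-senescent and 1.93, 1.11, 5.70 and 3.35 CPM in senescent PTEC. Its groups overlapped, and the difference of -0.39 ± 0.46 (log2, 95% interval -1.42 to 0.63) was not called (adjusted p = 0.519).

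Of the 6 membrane-type Mmp genes, 5 were tested and 5 rose, where 20.1% of all genes tested were called higher. Mmp14 (MT1-MMP, the activator of pro-Mmp2 together with Timp2; chr14:54431612-54445364, plus strand) was the most abundant of them, with 107, 132, 101 and 138 CPM in non-senescent and 208, 196, 192 and 217 CPM in senescent PTEC. The groups did not overlap, and the rise was 1.70-fold (log2 0.77 ± 0.14, adjusted p = 0.00175). Mmp15 (MT2-MMP) had 8.61, 9.78, 5.73 and 5.94 CPM in non-senescent and 34.4, 29.7, 45.6 and 43.2 CPM in senescent PTEC. All senescent cultures were again above all others, by 5.08-fold (log2 2.34 ± 0.23, adjusted p = 5.65e-05). Mmp24 (MT5-MMP) had 0.553, 0.558, 0.549 and 0.185 CPM in non-senescent and 1.51, 1.94, 2.32 and 1.83 CPM in senescent PTEC, a rise of 4.08-fold (log2 2.03 ± 0.34, adjusted p = 0.00133). Non-senescent culture 4 was lowest and the groups were apart. The exons of Mmp24 share 13.6% of their bases with BC029722 on the opposite strand.

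Mmp16 and Mmp17 are named to complete the membrane-type group, after their values were seen. Mmp16 (MT3-MMP) had 0.123, 0.525, 0.196 and 0.111 CPM in non-senescent and 2.12, 1.67, 0.919 and 1.97 CPM in senescent PTEC (log2 2.77 ± 0.50, adjusted p = 0.0018). Mmp17 (MT4-MMP) had 0.830, 1.67, 0.784 and 1.07 CPM in non-senescent and 2.25, 3.52, 1.27 and 2.18 CPM in senescent PTEC (log2 1.07 ± 0.37, adjusted p = 0.0393). The groups were apart for Mmp16 and overlapped for Mmp17, whose call was lost in 6 of the 8 fits that left out 1 culture (adjusted p up to 0.116, lost without non-senescent culture 1, 3 or 4 or senescent culture 1, 2 or 4). The remaining membrane-type gene, Mmp25, had 0 to 1 count in non-senescent and 1 to 6 counts in senescent PTEC and was not tested.

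Mmp19, a secreted enzyme that cuts basement membrane proteins, had 1.63, 3.02, 2.39 and 3.65 CPM in non-senescent and 14.3, 22.0, 10.4 and 14.3 CPM in senescent PTEC. The groups were apart, by 5.70-fold (log2 2.51 ± 0.31, adjusted p = 0.000219). The exons of Mmp19 share 22.3% of their bases with Tmem198b on the opposite strand, and the strand setting of the counting is not given in the sources used here. Mmp11, stromelysin-3, also rose (log2 0.63 ± 0.19, adjusted p = 0.0239) and lost its call in 4 of 8 fits without 1 culture (non-senescent 1 or 2, senescent 3 or 4).

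The Mmp genes were also divided into 2 groups by position, a split that was not among the planned groupings. In the mouse, 9 members lie side by side on chromosome 9 within 427 kb (chr9:7272514-7699585), in the order Mmp13, Mmp12, Mmp1b, Mmp3, Mmp10, Mmp8, Mmp27, Mmp20 and Mmp7. Of these, 7 were tested, 3 fell and 4 were not called, while 0 rose (0 higher at an unadjusted p under 0.05 by edgeR, 0 called higher by DESeq2). Of the 13 Mmp genes elsewhere, 11 were tested, 8 rose and 3 were not called, while 0 fell (0 lower at an unadjusted p under 0.05, 0 called lower by DESeq2). Among all genes tested, 20.1% were called higher and 19.7% lower. The median log2 fold change was -0.78 within the cluster and 1.07 outside it.

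Start sites of both groups are shown to let their sequence be compared. RefSeq promoter windows, 250 bases before to 50 after each start on GRCm38.p6, were at hand for 52 members (57 windows). The palindromic AP-1 pattern TGANTCA was found in 7 of the 9 cluster genes (Mmp1b, Mmp3, Mmp7, Mmp10, Mmp12, Mmp13 and Mmp20). The letters TATAAA (the pattern of a TATA box), searched on the gene's strand, were in the same 7, and the GC box GGGCGG, searched on both strands, in 0. By window, TGANTCA and TATAAA were each in 7 of 11. They were at the first start of Mmp7 and the second of Mmp12, and absent at the other start of each. The position of TATAAA differed, with its first base at -29 from the start in Mmp10, -26 in Mmp7 (and again at -123), -16 in Mmp13, -7 in Mmp3, -49 in Mmp1b, -58 in Mmp20 and 4 in Mmp12, after the start. Mmp8 and Mmp27 held neither pattern. Of the 8 Mmp genes elsewhere that had a window, 7 held a GC box (Mmp11, Mmp14, Mmp15, Mmp23, Mmp24, Mmp25 and Mmp28), 1 held TATAAA (Mmp21) and 0 held TGANTCA. Among all 32851 windows, 7.81% held TGANTCA, 8.32% TATAAA and 35.7% the GC box. A match describes the letters and is no evidence of a bound site. The following lines give the 100 bases before the start of 3 cluster genes that fell (Mmp12 at the second of its starts, Mmp27, Mmp8), 2 cluster genes that were not called (Mmp13, Mmp10), 2 membrane-type genes that rose (Mmp14, Mmp24) and the inhibitor that fell (Timp1), all on the plus strand and written 5′ to 3′, with the 3 patterns in capitals.
Mmp12, chr9:7347274-7347373: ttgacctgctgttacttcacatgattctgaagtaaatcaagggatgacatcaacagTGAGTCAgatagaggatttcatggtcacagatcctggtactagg
Mmp27, chr9:7571296-7571395: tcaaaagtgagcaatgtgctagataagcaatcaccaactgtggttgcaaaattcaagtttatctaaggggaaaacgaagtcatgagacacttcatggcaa
Mmp8, chr9:7558329-7558428: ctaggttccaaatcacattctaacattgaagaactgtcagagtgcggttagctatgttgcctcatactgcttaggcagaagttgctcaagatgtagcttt
Mmp13, chr9:7272414-7272513: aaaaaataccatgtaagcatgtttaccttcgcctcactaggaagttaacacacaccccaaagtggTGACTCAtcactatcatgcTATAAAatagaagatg
Mmp10, chr9:7502242-7502341: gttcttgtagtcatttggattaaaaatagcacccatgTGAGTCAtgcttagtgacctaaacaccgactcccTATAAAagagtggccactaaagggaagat
Mmp14, chr14:54431498-54431597: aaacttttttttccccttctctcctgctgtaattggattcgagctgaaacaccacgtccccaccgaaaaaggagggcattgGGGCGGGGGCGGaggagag
Mmp24, chr2:155775242-155775341: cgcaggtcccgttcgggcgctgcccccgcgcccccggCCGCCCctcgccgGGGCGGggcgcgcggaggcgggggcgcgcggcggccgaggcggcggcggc
Timp1, chrX:20870066-20870165: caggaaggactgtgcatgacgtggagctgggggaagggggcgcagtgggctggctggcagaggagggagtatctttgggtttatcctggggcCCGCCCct

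Of the cluster genes that fell, Mmp27 had groups that did not overlap. Mmp27 had 2.31, 2.33, 2.39 and 2.14 CPM in non-senescent and 0.290, 1.04, 0.351 and 0.311 CPM in senescent PTEC. Senescent culture 2 stood above the other 3 but under every non-senescent culture, and the difference was log2 -2.20 ± 0.41 (adjusted p = 0.00212). Mmp12, the macrophage elastase, had 5.75, 22.8, 4.67 and 6.94 CPM in non-senescent and 1.16, 5.19, 0.540 and 1.0 CPM in senescent PTEC. Culture 2 was by far the highest of both groups, so that the groups overlapped, and the call (log2 -2.35 ± 0.75, adjusted p = 0.0291) was lost without non-senescent culture 2 or senescent culture 1, 3 or 4 (log2 -3.48 to -1.56 over all 8 fits). In each of the 4 culture numbers the senescent culture was the lower one, and with the number as a block the difference was -2.54 (log2, adjusted p = 4.59e-05). Culture 2 also had the highest summed level of 10 macrophage and leukocyte markers in both groups, 124 CPM against 80.9 to 98.7 in the other non-senescent and 224 CPM against 57.1 to 94.6 in the other senescent cultures. Of these markers 8 were tested, 0 rose (0 higher at an unadjusted p under 0.05, 0 by DESeq2), and Cd68 and Ptprc fell. Their part in the level of Mmp12 was not tested.

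Mmp8, the neutrophil collagenase, had 1.97, 3.48, 0.863 and 1.07 CPM in non-senescent and 0.740, 0.737, 0.892 and 0.380 CPM in senescent PTEC. The groups overlapped, and the fall of log2 -1.42 ± 0.47 (adjusted p = 0.0324) lost its call in 5 of 8 fits without 1 culture (non-senescent 1 or 2, senescent 1, 2 or 4; adjusted p up to 0.0954). The other tested cluster genes, Mmp7, Mmp10, Mmp13 and Mmp20, had log2 fold changes from -0.78 to 0.14, and none was called.

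The inhibitors moved in different directions. Timp2, which also takes part in the activation of pro-Mmp2 by Mmp14 (chr11:118301069-118355740, minus strand), had 257, 242, 232 and 281 CPM in non-senescent and 934, 937, 467 and 553 CPM in senescent PTEC. The groups were apart, with senescent cultures 1 and 2 above 3 and 4, and the rise was 2.86-fold (log2 1.52 ± 0.24, adjusted p = 0.000871). Timp1, a secreted inhibitor often counted among injury and fibrosis genes (chrX:20870166-20874735, plus strand), had 53.5, 68.6, 69.2 and 42.6 CPM in non-senescent and 25.5, 35.9, 33.3 and 32.9 CPM in senescent PTEC. All senescent cultures were under all others, and Timp1 fell by 0.87 on the log2 scale (SE 0.18, adjusted p = 0.00425).

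Timp3 (chr10:86300372-86349506, plus strand) had 231, 225, 218 and 491 CPM in non-senescent and 433, 413, 309.7 and 574 CPM in senescent PTEC. Non-senescent culture 4 lay above 3 of the senescent cultures, and the difference of 0.57 ± 0.29 (log2) was not called (adjusted p = 0.145). With the culture number as a block it was 0.63 (adjusted p = 0.0071), and it was also called without non-senescent culture 4 (log2 0.94, adjusted p = 0.00659). Timp3 shares 21.3% of its exonic bases with Syn3 on the opposite strand. Timp4 had 1 count in 1 of the 8 PTEC libraries.

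**Figure D3:**
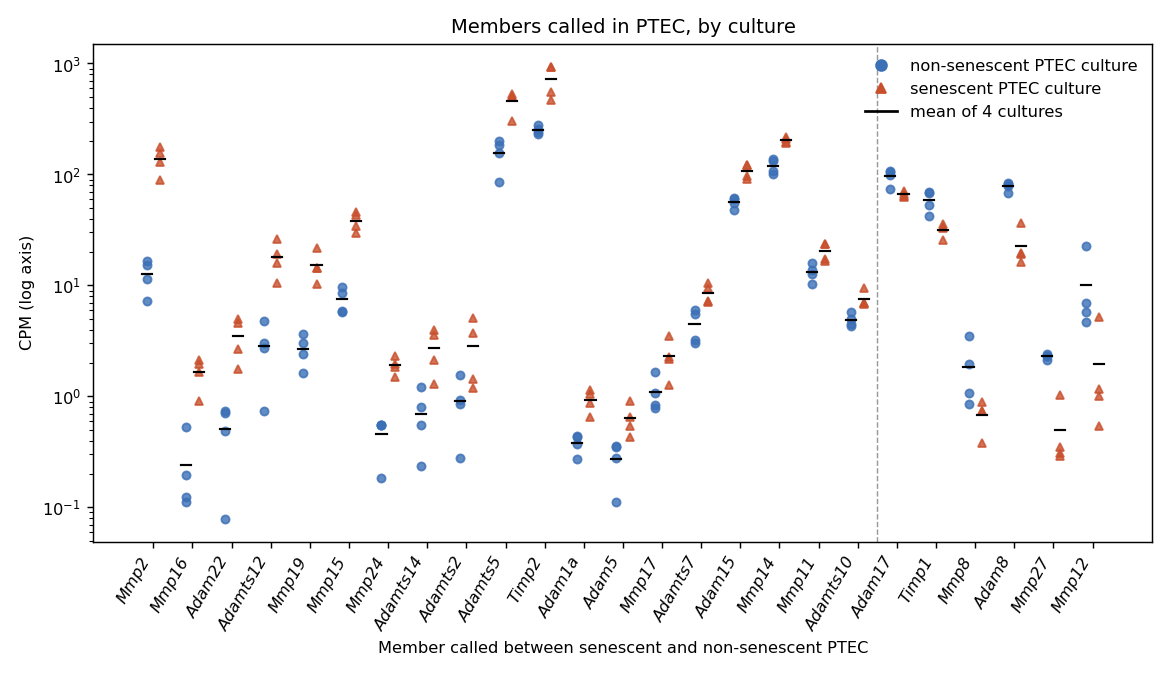
Level (CPM, log axis) of each of the 25 members called in PTEC, with a point for each of the 4 non-senescent (circles) and 4 senescent cultures (triangles) and a line at the mean of each group. The 19 members called higher stand left of the dashed line and the 6 called lower right of it; for Mmp12 a single culture lies far above the others in both groups, at 22.8 and 5.19 CPM.

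Of the ADAM genes, the sheddases Adam8 and Adam17 fell and Adam9 and Adam10 were not called. Adam17, which releases Tnf and ligands of the EGF receptor (chr12:21323509-21373632, minus strand), had 106, 99.5, 74.0 and 108 CPM in non-senescent and 62.7, 66.7, 63.7 and 70.9 CPM in senescent PTEC. The groups did not overlap, although non-senescent culture 3 came close to the highest senescent one, and Adam17 fell by 0.56 on the log2 scale (SE 0.14, adjusted p = 0.0103). Adam8, a protease known from leukocytes, had 81.8, 68.1, 83.2 and 78.7 CPM in non-senescent and 16.2, 19.3, 36.4 and 19.5 CPM in senescent PTEC. Senescent culture 3 was the highest of its group, far under all non-senescent cultures, and the fall was log2 -1.77 ± 0.24 (adjusted p = 0.000423).

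Adam10 had 227, 243, 136 and 289 CPM in non-senescent and 200.2, 214, 158 and 219 CPM in senescent PTEC, and Adam9 273, 249, 191 and 338 CPM and 280.4, 284, 217 and 278 CPM. The groups overlapped for both genes, culture 3 being lowest each time. Neither was called, with log2 differences of -0.18 (95% interval -0.67 to 0.31) for Adam10 and 0.01 (-0.40 to 0.42) for Adam9.

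Among the ADAM genes that rose, Adam15, which binds integrins through its disintegrin domain, was the most abundant. Adam15 had 47.9, 55.6, 60.5 and 61.9 CPM in non-senescent and 123, 122, 90.3 and 97.8 CPM in senescent PTEC. The groups were apart, by 1.91-fold (log2 0.94 ± 0.15, adjusted p = 0.000815). The exons of Adam15 share 20.6% of their bases with 4731419I09Rik on the opposite strand, and the strand setting of the counting is not given. Adam22, a receptor without protease activity known from the nervous system, had 0.707, 0.492, 0.0784 and 0.738 CPM in non-senescent and 4.60, 4.96, 1.78 and 2.66 CPM in senescent PTEC. All senescent cultures were higher, by 6.82-fold (log2 2.77 ± 0.54, adjusted p = 0.00289).

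Adam1a and Adam5, known from sperm, were also called higher (log2 1.29 and 1.18), but both stayed at or under 1.14 CPM in every culture and are named after their values were seen. Adam1a shares 63.7% of its exonic bases with Gm42878 and 24% with Mapkapk5, both on the same strand. Reads within the shared bases cannot be told from those of these genes, and how they were counted is not given. Adam5 lost its call with DESeq2 (adjusted p = 0.0596) and in 4 of 8 fits without 1 culture (non-senescent 1 or 4, senescent 1 or 4). Adam19, a protease that cuts neuregulin, was called higher with the block (log2 1.12, adjusted p = 0.0037) and not without it (1.10 ± 0.46, adjusted p = 0.0796).

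The ADAMTS genes that rose included 1 proteoglycanase, Adamts5, and the procollagen propeptidases Adamts2 and Adamts14. Adamts5, an aggrecanase, had 155, 202, 85.0 and 185 CPM in non-senescent and 528, 513, 301 and 500.1 CPM in senescent PTEC. Culture 3 was lowest in both groups, the groups were apart, and the rise was 2.94-fold (log2 1.55 ± 0.28, adjusted p = 0.00187). Adamts1, the most abundant ADAMTS gene, had 614, 779, 374 and 882 CPM in non-senescent and 965, 1195, 637 and 743 CPM in senescent PTEC. Its groups overlapped and it was not called (log2 0.42, 95% interval -0.22 to 1.05, adjusted p = 0.26). Of 4 tested proteoglycanases 1 rose, and Adamts4 was called higher only with the block (log2 0.57, adjusted p = 0.0463).

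Adamts14 and Adamts2 remove the N-propeptide of fibrillar procollagens. Adamts14 had 0.799, 1.21, 0.235 and 0.554 CPM in non-senescent and 3.60, 3.95, 1.30 and 2.14 CPM in senescent PTEC (log2 1.95 ± 0.50, adjusted p = 0.0109). Adamts2 had 0.277, 1.58, 0.863 and 0.923 CPM in non-senescent and 1.45, 5.06, 1.19 and 3.70 CPM in senescent PTEC (log2 1.64 ± 0.58, adjusted p = 0.0441). The groups were apart for Adamts14 and overlapped for Adamts2, which lost its call in 5 of 8 fits without 1 culture (non-senescent 1, 3 or 4, senescent 2 or 4; adjusted p up to 0.127). The third propeptidase, Adamts3, stayed at or under 1.24 CPM and was called higher with the block (log2 0.87, adjusted p = 0.0391) and not without it (adjusted p = 0.2).

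Adamts12, a protease that cuts cartilage oligomeric matrix protein (Comp), had 2.71, 4.82, 0.745 and 3.03 CPM in non-senescent and 19.2, 15.9, 10.4 and 26.4 CPM in senescent PTEC. The groups were apart, by 6.33-fold (log2 2.66 ± 0.48, adjusted p = 0.00186). Adamts7, which also cuts Comp, and Adamts10, which binds fibrillin, rose by less (log2 0.94 ± 0.27 and 0.62 ± 0.19, adjusted p = 0.0194 and 0.0258), and are named after their values were seen. Adamts10 lost its call in 4 of 8 fits without 1 culture (non-senescent 1 or 2, senescent 1 or 2) and Adamts7 without senescent culture 4. Adamts16, a kidney-expressed protease that cuts fibronectin, had 4.89, 5.22, 2.39 and 6.87 CPM in non-senescent and 1.67, 1.71, 2.03 and 4.28 CPM in senescent PTEC. Its groups overlapped, and the difference of -1.0 ± 0.40 (log2) was not called (adjusted p = 0.0664), whereas the block called it lower (log2 -1.02, adjusted p = 0.0143).

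Most tested genes known from fibroblasts and pericytes also rose in senescent PTEC. Of 10 such markers 9 were tested, 7 rose (Acta2, Postn, Thy1, Dcn, Col3a1, Col1a2 and Pdgfrb) and 0 fell (0 lower at an unadjusted p under 0.05, 0 by DESeq2). Their summed level was 81.6 to 170.4 CPM in non-senescent and 602 to 1289 CPM in senescent PTEC. Among these markers Lum was under 0.1 CPM in both groups and Dcn in non-senescent PTEC (0.0893 CPM, against 0.765 CPM in senescent PTEC). Senescent culture 3 had the lowest summed level. It was also the lowest senescent culture for 12 of the 19 members that rose, among them Mmp2, Mmp14, Timp2, Adam15, Adam22, Adamts5 and Adamts12. Among non-senescent cultures the members just named, except Adam15, were also lowest in culture 3, as were Adamts14 and Mmp17. Of the 12, Adam15, Adamts2 and Mmp19 were lowest in non-senescent culture 1 and Mmp16 in culture 4. The lowest summed level of the markers among non-senescent cultures was that of culture 1 (81.6 CPM, against 134.6 CPM in culture 3). Senescent culture 3 was also lowest for Adam9, Adam10, Timp3 and Adamts1, which were not called. Summed podocyte markers were 90.7 to 206 CPM in non-senescent and 213 to 465 CPM in senescent PTEC, endothelial markers 76.8 to 228 and 58.0 to 226 CPM, and general epithelial markers 2031 to 3064 and 622 to 2335 CPM. Of these, the podocyte genes Nphs1 and Synpo rose and the endothelial gene Kdr fell. Their part in these results was not tested, and in bulk samples fewer cells of a type and less RNA per cell cannot be told apart.

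The other genes of the system were taken from 4 lists. Their counts stand beside 20.1% of all genes tested that were called higher and 19.7% called lower. Of 12 tested matrix substrates, 9 rose and 0 fell (0 lower at an unadjusted p under 0.05, 0 by DESeq2), with a median log2 fold change of 1.70. Fn1, fibronectin, rose by 2.73 ± 0.41 (log2, adjusted p = 0.000662), Col4a1 of basement membranes by 1.25 ± 0.27 (adjusted p = 0.00485), and Comp, the substrate of Adamts12 and Adamts7, by 2.22 ± 0.29 (adjusted p = 0.000297). Of 17 tested activators and regulators, 6 rose and 2 fell. Those that rose included Reck, a membrane-anchored Mmp inhibitor (log2 2.38 ± 0.29, adjusted p = 0.000205), the proprotein convertases Pcsk5 (2.44) and Pcsk6 (1.35), Tspan17, a tetraspanin partner of Adam10 (2.23), and Plat, a plasminogen activator (0.68). Those that fell were Tspan33 and Tspan14, other tetraspanin partners of Adam10 (log2 -1.04 and -0.64).

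Of 8 tested related enzymes, 3 rose and 2 fell. Bmp1 and Tll1, which remove the C-propeptide of procollagens, rose by 1.28 and 1.86 (log2, adjusted p = 0.000338 and 0.000389). Pappa2 had the largest log2 fold change of the list (3.81) at low level, 0.0349 CPM in non-senescent and 0.541 CPM in senescent PTEC. Mep1a (meprin alpha) and Mme (neprilysin), both enzymes of the proximal tubule brush border, fell (log2 -5.56 and -0.82). Of 21 tested ligands and receptors known to be shed, 2 rose and 8 fell. Hbegf and Jag1 rose (log2 0.80 and 0.92), while Tnf, Areg, Kl, Btc, Havcr1, Notch1, Cd44 and Tgfa fell (log2 -1.79 to -0.53). Havcr1 (Kim-1) was the most abundant of these, with 1951 CPM in non-senescent and 917 CPM in senescent PTEC.

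The kidneys were compared to see which members changed with age. Of 53 tested members, 1 rose and 0 fell from 3 to 24 months, 1 rose and 2 fell from 3 to 12 months, and none was called from 12 to 24 months. Among all 17067 genes tested, 1.89% were called higher and 0.451% lower at 24 against 3 months, 1.22% and 1.36% at 12 against 3 months, and 0.896% and 0.434% at 24 against 12 months. The comparisons share kidneys and are not independent.

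At an unadjusted p under 0.05, 16 members were higher and 6 lower at 24 than at 3 months by edgeR, 4 higher and 6 lower at 12 than at 3 months, and 12 higher and 5 lower at 24 than at 12 months, where 18.2%, 16.5% and 15.2% of all genes tested had such a p. DESeq2 called 5 higher and 2 lower, 1 higher and 2 lower, and 3 higher and 1 lower, in the same order, of 67 members with counts. Of 30029 genes it called 2.42% higher and 1.03% lower, 1.77% and 1.92%, and 1.64% and 0.952%. The log2 fold change was above 0 for 35, 29 and 30 of the 53 members, against 50.1%, 50.5% and 49.9% of all genes tested, and its median was 0.36, 0.10 and 0.09, against 0.0007, 0.0044 and -0.0004. At 24 against 3 months the groups did not overlap for 11 members that were higher and 5 that were lower, where 11.9% and 10.1% of all genes did so. It was 8 and 5 at 12 against 3 months (10.9% and 9.4% of all genes) and 16 and 4 at 24 against 12 months (13.5% and 12.2%).

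**Figure D4:**
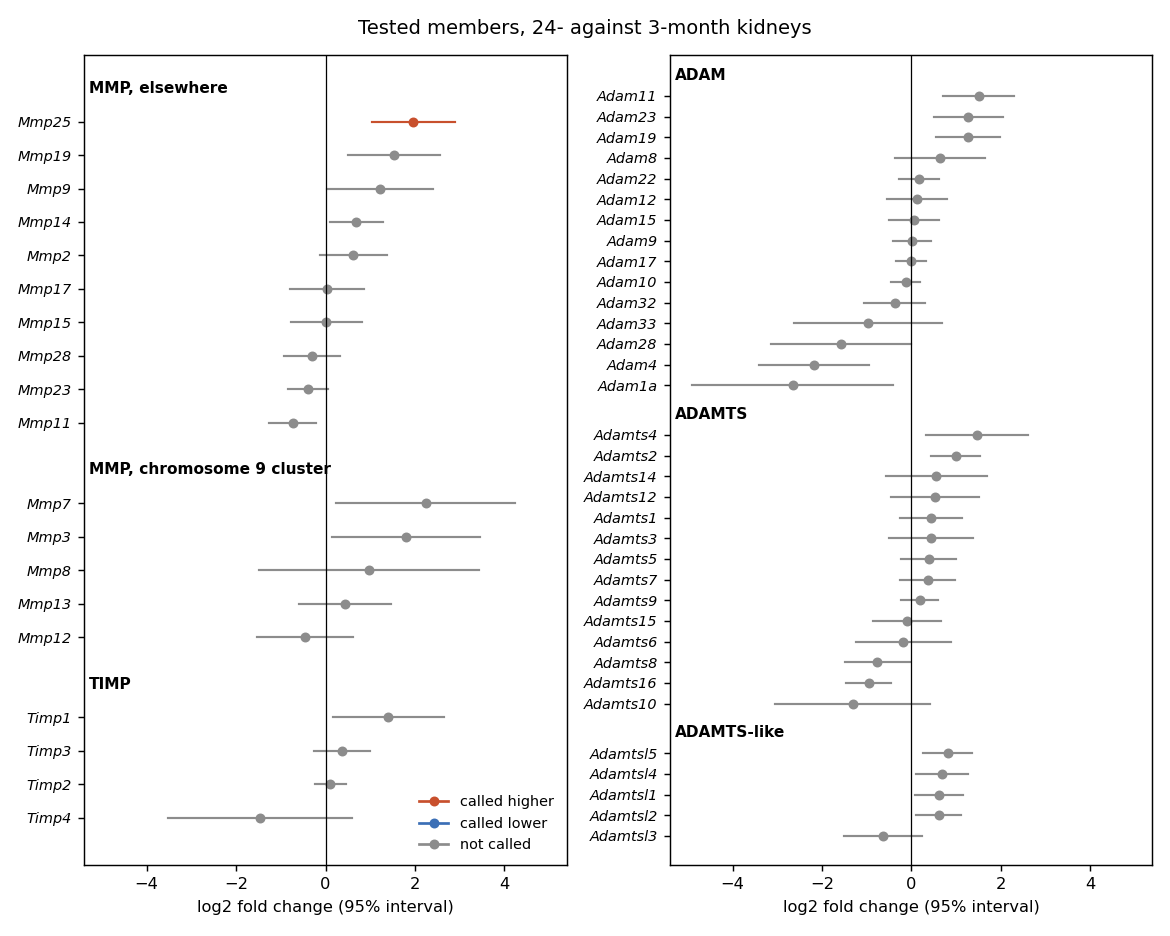
Log2 fold change of 24- against 3-month kidneys for the 53 tested members, with 95% intervals, by family; red marks members called higher, blue called lower and grey not called. Mmp25 is the single member called, at 1.96, and the widest intervals belong to members under 1 CPM, such as Adam1a.

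The 4 members called in the kidneys had low counts or calls that other settings did not keep. Mmp25, a membrane-type enzyme known from neutrophils (chr17:23628311-23645277, minus strand), had 4, 9 and 5 counts at 3 months, 19, 13 and 21 at 12 months and 48, 30 and 27 at 24 months, or 0.105, 0.184 and 0.112 CPM, then 0.330, 0.214 and 0.405 CPM, then 0.733, 0.456 and 0.415 CPM. All 24-month kidneys were above all 3-month ones (log2 1.96 ± 0.41, adjusted p = 0.0471). The identifier of Mmp25 has another version in the gene set of the 3-month kidneys, 2 genes on the opposite strand overlap it that are in a single kidney gene set, and the call was lost in 5 of 6 fits without 1 kidney (3-month 1 or 3, 24-month 1, 2 or 3). Mmp25 and the next 2 genes are named after their values were seen.

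Adam28, a protease known from lymphocytes, had 51, 11 and 58 counts at 3 months, 1, 8 and 1 at 12 months and 19, 18 and 25 at 24 months. The 12-month kidneys were under all others, and the fall from 3 to 12 months (log2 -3.99 ± 0.84, adjusted p = 0.0455) was lost in 5 of 6 fits without 1 kidney (3-month 1 or 3, any of 12 months). Adamts8, a proteoglycanase, had 28, 33 and 37 counts at 3 months, 9, 16 and 14 at 12 months and 20, 30 and 36 at 24 months. Here too the 12-month kidneys were lowest, and the fall of log2 -1.69 ± 0.34 (adjusted p = 0.0396) was lost without the same 5 kidneys, 1 at a time.

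Adam19 had 0.499, 0.696 and 0.607 CPM at 3 months, 1.65, 2.07 and 1.27 CPM at 12 months and 2.03, 1.23 and 1.11 CPM at 24 months. Both older groups lay above all 3-month kidneys. The rise from 3 to 12 months was 2.76-fold (log2 1.46 ± 0.32, adjusted p = 0.0489) and was lost without each of the 6 kidneys in turn (adjusted p from 0.0545 to 0.207). From 3 to 24 months the difference was 1.27 ± 0.31 (log2) and was not called by edgeR (adjusted p = 0.0787), while DESeq2 called it higher.

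None of the members called in PTEC without the block was called with age in the kidneys by the main edgeR fit. That fit called at most 1.89% of all genes higher and 1.36% lower in any age comparison. Of these members, other edgeR fits called Mmp11 lower at 24 than at 12 months (RLE scaling, no filter, without genes of differing version). Without 3-month kidney 3, edgeR called Mmp19 higher at 24 than at 3 months. DESeq2 called Mmp19 and Adamts2 higher at 24 than at 3 months and Mmp11 lower at 24 than at 12 months. With the culture number as a block, Adam19 was also called higher in PTEC (log2 1.12, adjusted p = 0.0037). Adam19 was the member called higher from 3 to 12 months in the kidneys by edgeR, a call lost without each kidney in turn. Mmp2 had 1.58, 2.91 and 1.21 CPM at 3 months, 2.67, 1.99 and 2.76 CPM at 12 months and 3.15, 2.23 and 3.43 CPM at 24 months. The ages overlapped, and the difference from 3 to 24 months was 0.62 (log2, 95% interval -0.13 to 1.38, adjusted p = 0.339). Mmp14 had 5.59, 7.83 and 4.34 CPM, then 7.22, 4.87 and 8.84 CPM, then 10.3, 8.95 and 9.45 CPM. The 24-month kidneys lay above all others, with a difference from 3 months of 0.69 ± 0.26 (log2) that was not called (adjusted p = 0.221). Mmp9 stayed at or under 1.23 CPM in all kidneys, with 1.22 ± 0.52 (log2) from 3 to 24 months (adjusted p = 0.264).

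Of the inhibitors, Timp3 had 1353, 1896 and 969 CPM at 3 months, 2352, 1376 and 2363 CPM at 12 months and 1953, 1608 and 1882 CPM at 24 months. The ages overlapped, and no comparison was called (log2 0.37 ± 0.28 from 3 to 24 months, adjusted p = 0.462). In each age group the kidney with the lowest Timp3 also had the lowest summed level of the proximal tubule markers, 7342 CPM at 3 months, 8345 CPM at 12 months and 12138 CPM at 24 months. The part of tissue composition in the level of Timp3 was not tested. Timp2 had overlapping ages, with 34.0 to 46.4 CPM at 3 months, 36.6 to 42.4 at 12 months and 38.6 to 47.7 at 24 months (log2 0.11 from 3 to 24 months, 95% interval -0.24 to 0.46, adjusted p = 0.685).

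Timp1 had 0.525, 0.287 and 1.44 CPM at 3 months, 0.642, 0.905 and 0.424 CPM at 12 months and 1.86, 2.67 and 1.41 CPM at 24 months. Kidney 3 of the 3-month group lay within the 24-month range, and the difference of 1.4 ± 0.55 (log2, 95% interval 0.16 to 2.64) was not called (adjusted p = 0.230). Timp4 had 0.123 to 0.900 CPM at 3 months, 0.0772 to 0.740 CPM at 12 months and 0.137 to 0.200 CPM at 24 months, and its ages overlapped (log2 -1.46 ± 0.91 from 3 to 24 months, adjusted p = 0.390).

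The sheddases Adam10 and Adam17 were not called either. Adam10 had 73.2, 78.6 and 64.2 CPM at 3 months, 69.3, 57.8 and 74.2 CPM at 12 months and 68.9, 65.0 and 64.1 CPM at 24 months, with a difference from 3 to 24 months of -0.12 (log2, 95% interval -0.45 to 0.20, adjusted p = 0.615). Adam17 had 27.1, 29.9 and 23.4 CPM, then 22.1, 18.6 and 23.3 CPM, then 28.9, 24.7 and 25.8 CPM. The 12-month kidneys were under the others, but neither difference was called (log2 -0.33 ± 0.15 from 3 to 12 months, adjusted p = 0.320).

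The other genes of the system were also compared in the kidneys. Of these, 0 of 19 activators and regulators, 0 of 10 related enzymes and 0 of 12 matrix substrates were called at 24 against 3 months by edgeR. At an unadjusted p under 0.05 there were 2 higher and 1 lower, 1 higher and 0 lower, and 6 higher and 1 lower, and DESeq2 called 0 and 1, 1 and 0, and 4 and 0 of them. Of 18 shed ligands and receptors 1 rose, the Tnf receptor Tnfrsf1b (log2 1.56, adjusted p = 0.0188), from 2.05 ± 0.333 CPM at 3 months to 6.05 ± 2.0 CPM at 24 months. Summed fibroblast and pericyte markers were 160 to 174 CPM at 3 months, 173 to 181 CPM at 12 months and 222 to 276 CPM at 24 months, and summed macrophage and leukocyte markers were 94.9 to 144, 140 to 164 and 154 to 202 CPM. Their part in the levels of the members was not tested.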

How the data were processed

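RNA of 8 PTEC cultures and 9 kidneys had been sequenced by the authors as stranded, paired-end poly(A) libraries. The deposited values are raw read counts per gene without normalization, made by the authors on GRCm38 with the nf-core/rnaseq pipeline. The aligner, counting tool and strand setting are not given in the sources used here. Identifiers were joined without version. Symbols, positions and exon lengths came from GENCODE mouse release M21, promoter windows from RefSeq.

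The tools were edgeR 4.0.16 with limma 3.58.1 in R 4.3.3, and pandas 2.3.3, numpy 2.4.6, matplotlib 3.10.9 and scipy 1.17.1 in Python 3.11.15. Separate fits for PTEC and kidneys used TMM scaling, filterByExpr and the robust quasi-likelihood test. Benjamini-Hochberg adjustment covered all genes tested, and a call required adjusted p under 0.05 with a log2 change beyond 0.5 in either direction. All 9 kidneys shared an estimate of the spread. The fit was tested on simulated data. Intervals of fold changes are at 95%, and the limit for a zero count (3 counts) covers counting error only. Libraries of a group differed from each other by more than sampling noise (chi-square per gene 17.0 to 341 over 21 pairs).

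Alternatives were DESeq2 1.42.0 with the study's settings, RLE scaling, other filters and thresholds, a replicate block, the compared ages alone, identifiers of equal version and each library left out. Same-numbered PTEC cultures deviated together (r = 0.188 to 0.613 over genes, 4 of 4 highest with their own number). The replicate block therefore took the numbers to pair the cultures, which no label states. The main fit and the fits without 1 culture did not use the numbers. Same-numbered kidneys of 12 and 24 months, which are different animals, also correlated (r = 0.171 to 0.555), so the correlation does not establish pairs. Named were the Timp genes, Mmp2, Mmp9, Mmp14, Adam10 and Adam17, up to 10 rises and 10 falls per comparison among called members of at least 1 CPM, and the 5 members of highest RPKM in non-senescent PTEC and in 3-month kidneys. Members outside this rule are marked where named, and the blocked values of Adam19, Adamts3, Adamts4 and Adamts16, the kidney-only and undetected members and the gene lists' examples were chosen after their values were seen. The members and lists were chosen with earlier results of these data known. A grouping of ADAM proteins by their zinc-binding motif was planned and not made, since protein sequences were not used here.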

Additional observations from a re-analysis of the deposited data

Results flagged for a closer look

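In 10 of 61 groups of 4 PTEC cultures, the level of a named member had 1 culture far from the other 3 (Dixon's ratio of gap to range, at 95%), where chance flags about 1 in 20 groups. For Timp4 this is 1 count against 0 in the other cultures, so that its ratio carries no information. Among non-senescent cultures these were Timp3 in culture 4 (491 CPM, others 218 to 231), Mmp24 in culture 4 (0.185 CPM, others 0.549 to 0.558) and Mmp12 in culture 2 (22.8 CPM, others 4.67 to 6.94). Among senescent cultures Mmp12 (5.19 CPM, others 0.540 to 1.16), Mmp27 (1.04 CPM, others 0.290 to 0.351), Adamts10 (9.44 CPM, others 6.84 to 6.97) and Timp4 (0.0335 CPM, others 0) were high in culture 2. In senescent culture 3 Adam9 (217 CPM, others 278 to 284) and Adamts5 (301 CPM, others 500.1 to 528) were low and Adam8 was high (36.4 CPM, others 16.2 to 19.5). Groups of 3 kidneys are too small for this rule.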

How the results depend on the processing

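The counts of called PTEC members stayed within 1.5 times of 19 higher and 6 lower under all alternatives (14 to 24 and 4 to 7), and the replicate block changed no call in PTEC beyond those given with the results. The kidney counts did not hold. At 24 against 3 months the 1 member higher became 2 without a filter, 0 at a filter of 1 CPM, 5 with DESeq2, 0 with the replicate block, 0 with the compared ages alone, 0 without genes of differing version and 0 to 2 without 1 kidney, and the 0 lower became 2 with DESeq2 and 0 to 1 without 1 kidney (1 without 3-month kidney 2). At 12 against 3 months the 1 higher and 2 lower became 0 and 0 at 1 CPM, with the block and with the compared ages alone, 0 and 1 without genes of differing version, and 0 and 0 to 2 without 1 kidney. At 24 against 12 months 0 and 0 became 1 and 1 without a filter, 3 and 1 with DESeq2, 1 higher with the compared ages alone, and 1 lower with RLE scaling and without genes of differing version. At 12 and 24 months the same numbers correlated (r = 0.171 to 0.555), at 3 against 12 and 3 against 24 months they did not (-0.705 to -0.084 and -0.425 to -0.0552). The block also lost the calls of Mmp25, Adam19, Adam28 and Adamts8 (edgeR, adjusted p = 0.146, 0.119, 0.155 and 0.0783). The cause of these shifts was not tested.

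Values of single named members were compared with RLE scaling, DESeq2, the block and 1 library left out. In these settings directions reversed only for members that were not called. In PTEC this was Adam9, with DESeq2 (-0.0013) and without 1 culture (-0.11 to 0.15), and with the block at 12 against 3 months Adamts1 (0.0023) and Adam15 (-0.0082). Without 1 kidney, at 24 against 3 months Adam9 gave -0.11 to 0.22, Adam17 -0.11 to 0.0751, Timp2 -0.00013 to 0.23 and Adam15 -0.10 to 0.26. At 12 against 3 months Timp2 gave -0.15 to 0.0747, Adamts1 -0.23 to 0.31, Timp1 -0.58 to 0.71, Timp4 -2.15 to 0.47, Adam9 -0.0335 to 0.29 and Adam15 -0.14 to 0.22. At 24 against 12 months Adam10 gave -0.12 to 0.0592, Timp4 -1.39 to 0.69, Adam15 -0.16 to 0.17 and Mmp9 -0.0159 to 0.56. Over these settings, 593 values of named members kept direction and call, 59 lost the call, 2 gained it and 36 reversed. The other filters and thresholds, the compared ages alone and identifiers of equal version are not among these values.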

Other observations

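Some members that edgeR did not call in the kidneys had ages that did not overlap, and are given as values chosen after they were seen. DESeq2 called Adam11 higher at 24 than at 3 and at 12 months, Adamts2 higher and Adamts16 lower at 24 than at 3 months, and Mmp11 lower at 24 than at 12 months. The adjusted p-values given here are those of edgeR. Adam11, an ADAM protein without protease activity known from the nervous system, had 2.70, 4.83 and 1.80 CPM at 3 months, 2.67, 3.60 and 2.53 CPM at 12 months and 10.4, 6.53 and 9.57 CPM at 24 months. The 24-month kidneys were above all others (log2 1.5 ± 0.35 against 3 months, adjusted p = 0.0674, and 1.59 ± 0.35 against 12 months, adjusted p = 0.0692). Adamts2 had 1.71, 2.52 and 2.18 CPM at 3 months, 2.98, 2.22 and 2.97 CPM at 12 months and 5.34, 3.54 and 3.84 CPM at 24 months (log2 0.99 ± 0.24 from 3 to 24 months, adjusted p = 0.0721). Its 24-month kidneys were the highest. Mmp11 was lower at 24 months, with 1.91, 1.85 and 2.13 CPM against 4.48, 5.66 and 3.30 CPM at 12 months (log2 -1.19 ± 0.24, adjusted p = 0.0502). Adamts16 had 2.44, 2.15 and 1.91 CPM at 3 months, 1.37, 1.73 and 1.79 CPM at 12 months and 0.901, 1.31 and 1.15 CPM at 24 months (log2 -0.95 ± 0.22 from 3 to 24 months, adjusted p = 0.0667), each age lying under the one before it.

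Mmp7, matrilysin, had 0.153, 2.28 and 0.875 CPM at 24 months and at most 0.337 CPM in any younger kidney, and 1 of the 24-month kidneys was within the range of the younger ones. Adamts10 varied more within than between ages, with 5.07, 1.86 and 6.57 CPM at 3 months, 2.39, 11.4 and 1.58 CPM at 12 months and 1.15, 2.87 and 1.4 CPM at 24 months. Its identifier has another version in the gene set of the 3-month kidneys. The highest kidney of each age was the one with the lowest summed proximal tubule markers.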
